A study of Mus musculus with 2 samples.

Results

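Plasmacytoid dendritic cells (pDCs) made up 228 of the 10610 bone marrow cells profiled from male wild-type mice, 113 of 5398 cells in the library of the middle cerebral artery occlusion (MCAO) model and 115 of 5212 cells in the control library. The cells were chosen by measured values: a cell was counted as a pDC when its summed level of Siglech, Ccr9 and Cox6a2 was at least 20 UMIs per 10000 of its UMIs and its summed level of Cd79a and Cd79b was below 15. A UMI is a unique molecular identifier, which marks 1 captured mRNA molecule, and every level below is in UMIs per 10000. In the MCAO model, blood flow through a main brain artery is stopped to mimic ischaemic stroke. Both groups were genotype WT and 8-10 weeks old, and the marrow of tibias and femurs was taken as a whole, with red cells lysed and no sort of cell types. Cells were captured on the BD Rhapsody microwell system. There was 1 library per group, so no test between the conditions was possible. Intervals in square brackets are exact at 95% confidence and cover counting error only. How many animals went into a library, when marrow was taken after surgery and how control mice were handled is not stated in the labels.

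Plasmacytoid dendritic cells are marrow-born immune cells that sense nucleic acids of viruses in their endosomes, through Toll-like receptors, and answer with large amounts of type I interferon. Their identity depends on the transcription factor TCF4 (E2-2), with SPIB, RUNX2, IRF8 and BCL11A as partners, and they form in the marrow from both lymphoid and myeloid precursors before they enter the blood. In mice they carry the surface lectin Siglec-H, and CCR9, a chemokine receptor that guides cells to the gut.

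The MCAO library held 35401492 UMIs (median 4952 per cell) and the control library 25886279 (median 3344). pDCs differed less in depth: a median of 4690 UMIs (539 to 11286) in MCAO pDCs and 4431 (596 to 10029) in control pDCs, with 550802 and 526569 UMIs in all. A doublet score marked 3 pDCs in the MCAO library and 3 in the control library. The summed level of 8 neutrophil granule genes was 213 in MCAO pDCs and 176 in control pDCs, and 177 and 153 in B-lineage-gated cells, defined below. It was above 400 in single cells in 6 MCAO pDCs and 4 control pDCs, of which 3 and 2 were marked as doublets. Cells are named by running numbers, so barcodes shared by the libraries could not be counted.

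The leading genes are the 20 ranked genes with the highest pDC level over all other cells, taking the lower of the 2 libraries. RefSeq promoters of build GRCm38.p6 were found for 13 of them by symbol. The first 4 in rank with an entry are printed because the factors that keep pDC identity bind short motifs: capitals mark the E-box letters CAGGTG, which TCF4-type factors bind and which read CACCTG on the opposite strand, and the letters TGTGGT of RUNX factors, which read ACCACA there. Both strands were searched.
Siglech: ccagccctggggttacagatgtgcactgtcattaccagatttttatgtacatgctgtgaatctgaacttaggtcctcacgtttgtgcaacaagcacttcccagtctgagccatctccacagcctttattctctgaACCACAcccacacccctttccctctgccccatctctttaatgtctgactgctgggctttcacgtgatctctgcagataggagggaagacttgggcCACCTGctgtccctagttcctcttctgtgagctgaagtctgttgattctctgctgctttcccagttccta
Ccr9: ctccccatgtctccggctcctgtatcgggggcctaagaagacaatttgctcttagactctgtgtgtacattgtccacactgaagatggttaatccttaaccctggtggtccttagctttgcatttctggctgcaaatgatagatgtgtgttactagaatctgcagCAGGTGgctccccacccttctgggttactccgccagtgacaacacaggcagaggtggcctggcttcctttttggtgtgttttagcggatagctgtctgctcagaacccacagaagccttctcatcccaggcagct
Klk1: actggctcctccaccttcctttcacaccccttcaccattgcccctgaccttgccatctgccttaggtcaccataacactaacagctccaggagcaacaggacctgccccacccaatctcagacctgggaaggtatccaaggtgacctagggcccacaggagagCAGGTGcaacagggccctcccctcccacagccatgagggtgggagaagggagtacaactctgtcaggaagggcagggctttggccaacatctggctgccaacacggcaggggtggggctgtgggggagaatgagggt
Cd300c: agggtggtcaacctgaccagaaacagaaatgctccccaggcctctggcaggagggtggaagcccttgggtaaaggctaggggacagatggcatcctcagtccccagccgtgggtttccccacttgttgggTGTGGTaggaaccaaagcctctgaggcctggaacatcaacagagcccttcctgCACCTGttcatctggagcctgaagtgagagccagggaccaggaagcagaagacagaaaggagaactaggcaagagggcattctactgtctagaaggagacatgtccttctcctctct
Siglech lies at chr7:55767934-55768233 on the plus strand, Ccr9 at chr9:123766961-123767260 on the plus strand, Klk1 at chr7:44225110-44225409 on the plus strand and Cd300c at chr11:114960458-114960757 on the minus strand. CAGGTG was present in 7 of the 13 windows (53.8%), against 20% of all 27025 promoter windows of 300 bases. TGTGGT was present in 5 of 13 (38.5%), against 16.9% of all. A match is a description of the letters and no binding was measured. A window without a match says only that these letters are not in it.

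The genes of the rule are described here and not tested, since they chose the cells. The summed level of Siglech, Ccr9 and Cox6a2 was 21.3 at the lowest, 69.8 at the median and 156 at the highest in MCAO pDCs, and 21.2, 68.5 and 151 in control pDCs. The nearest cells inside the limit had 21.3, 22.4 and 23.8 in the MCAO library and 21.2, 21.7 and 21.9 in the control library. The nearest outside had 19.9, 18.3 and 14.7 in the MCAO library and 18.7, 18.6 and 16.6 in the control library. Few cells lay near the limit: 12 MCAO pDCs and 10 control pDCs were between 20 and 30, and 15 MCAO and 8 control cells outside were between 10 and 20. Most other cells had none of the 3 genes, 4384 of 4766 in the MCAO library and 3792 of 4134 in the control library, among cells under the Cd79 limit.

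Markers outside the rule went with the label. Klk1, a tissue kallikrein, had a UMI in 57 of 113 MCAO pDCs (50.4%) and 52 of 115 control pDCs (45.2%). No B-lineage-gated cell had one, 0 of 271 in the MCAO library and 0 of 485 in the control library. These cells carried a Cd79a and Cd79b level of at least 30 and had median depths of 2061 and 1819 UMIs. When every cell was thinned to 1000 UMIs, the Klk1 shares in pDCs were 34.2% in MCAO and 32.7% in control. Reads of Klk1 and the near-identical Klk1b27 may be split between the copies. Runx2, a RUNX factor needed for pDCs to leave the marrow, had a UMI in 98.2% of MCAO pDCs and 93.9% of control pDCs, against 3.69% and 1.24% of B-lineage-gated cells.

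The level of Runx2 was 20.1 [18.9 to 21.3] in MCAO pDCs and 16.3 [15.2 to 17.4] in control pDCs, against 0.547 and 0.518 in the other cells of those libraries. Tcf4 was at 23.3 in MCAO pDCs and 22.1 in control pDCs, against 0.719 and 0.994 in other cells. Irf8 was at 52.8 in MCAO pDCs and 51.5 in control pDCs, against 2.75 and 2.71 in other cells. All 3 factors stood far above the rest of the marrow in both libraries. Spib was at 10.9 in MCAO pDCs and 9.99 in control pDCs, below its level in B-lineage-gated cells (16.3 and 20.1), where it is also used.

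**Figure D1:**
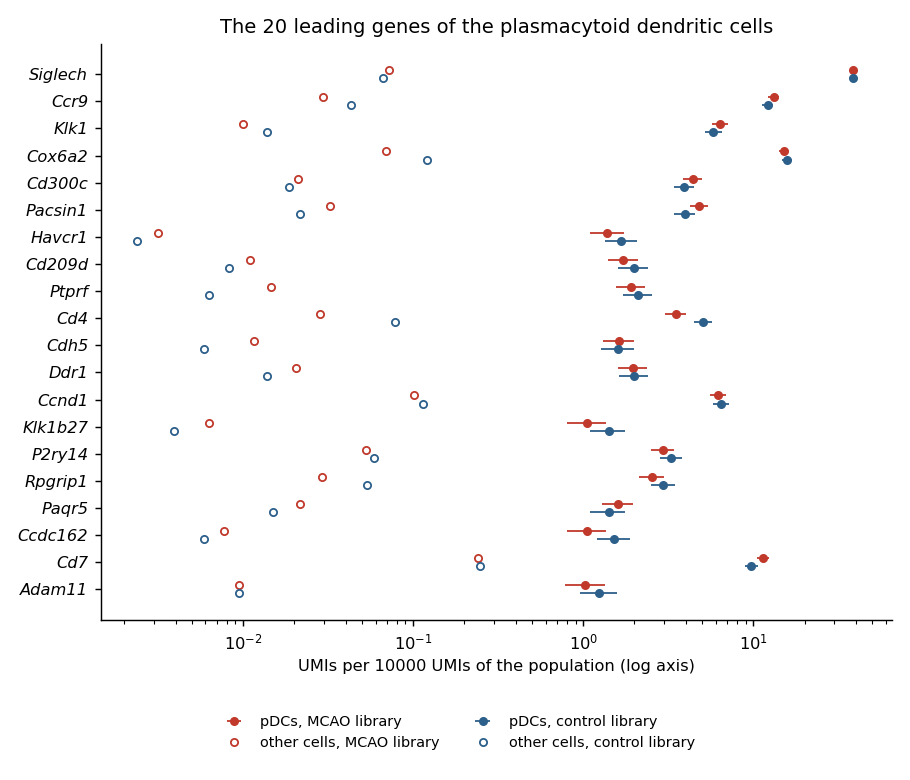
Level of the 20 leading genes in UMIs per 10000 (log axis) in pDCs (filled points, with 95% counting intervals) and all other cells (open points) of each library. Siglech, Ccr9 and Cox6a2 chose the cells. Siglech stands at 38.8 in MCAO pDCs and 38.7 in control pDCs.

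Siglech itself was 538-fold higher in MCAO pDCs than in other MCAO cells, and 580-fold higher in control pDCs than in other control cells. Among all 4254 ranked genes, those with at least 50 UMIs over the pDCs of both libraries and a UMI in at least 2% of them in 1 library, 251 were at least 4-fold higher than in other cells in both libraries (5.90%) and 49 at least 4-fold lower (1.15%). The rule chose cells on this contrast, so nothing is read from these shares. Cd300c, an immunoglobulin-like receptor, was at 4.41 in MCAO pDCs and 3.91 in control pDCs, 211-fold above other cells in both. Pacsin1, an adaptor of membrane trafficking, was at 4.79 in MCAO pDCs and 3.95 in control pDCs. Cd7 was at 11.4 in MCAO pDCs and 9.72 in control pDCs, against 0.240 and 0.246 in other cells. Ccnd1, the G1 cyclin D1, was at 6.21 in MCAO pDCs and 6.46 in control pDCs, against 0.101 and 0.114 in other cells. In MHC-II-high-gated cells, defined below, Cd7 was at 1.57 in MCAO and 1.83 in control, and Ccnd1 at 2.28 and 2.89. Cox6a2 overlaps Itgad on the other strand and Runx2 overlaps antisense genes, and whether counting used strand was not given, so their reads may include the partner's.

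Cox6a2 is a heart-and-muscle form of a cytochrome c oxidase subunit. It was at 15.2 in MCAO pDCs and 15.7 in control pDCs, against 0.0692 and 0.121 in other cells. The widely used form Cox6a1 was not raised in pDCs: 4.21 in MCAO pDCs and 4.08 in control pDCs, against 5.05 and 4.99 in other cells. Cox6a2 is a gene of the rule, so its excess over other cells was fixed by the choice of cells and is given as a description.

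Several genes known from conventional dendritic cells were present. Clec9a was at 1.82 in MCAO pDCs and 1.56 in control pDCs, against 0.0694 and 0.0347 in other cells. Clec10a was at 2.89 in MCAO pDCs and 3.89 in control pDCs, and Cd209a, called lower by the rule given below, at 1.36 and 2.35. At least 1 of these 3 lectins had a UMI in 85 MCAO pDCs and 84 control pDCs, and all 3 in 6 and 14. Clec9a had a UMI in 38.9% of MCAO and 35.7% of control pDCs, against 26.1% and 19.1% of MHC-II-high-gated cells. For Clec10a the shares were 54.9% and 60% in pDCs, against 47.8% and 25.5%. For Cd209a they were 20.4% and 27% in pDCs, against 30.4% and 29.8%. The lectins were thus not found in pDCs alone. Batf3, which defines 1 conventional lineage, had no UMI in pDCs of either library, and a UMI of Zbtb46, Batf3 or Xcr1 was seen in 5 MCAO pDCs and 1 control pDC.

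The question of the design, whether stroke changes marrow cells, was asked first of pDC number. The share of pDCs was 2.09% [1.73 to 2.51] in the MCAO library and 2.21% [1.83 to 2.64] in the control library, a difference of -0.113 percentage points [-0.671 to 0.441]. The interval covers the counting of cells in these 2 libraries only and says nothing of the spread between animals. B-lineage-gated cells were fewer in the MCAO library, 271 against 485 in control, and among cells under the Cd79 limit pDCs were 2.32% in MCAO and 2.71% in control.

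Gene levels in pDCs were then set against each other between the libraries. With no replicates, a gene was called when its level differed by at least 1.5-fold. Of the 4254 ranked genes, 241 were higher in MCAO pDCs (5.67%) and 310 lower (7.29%). Calls followed depth: 20.7% of the 1888 genes with 50 to 100 UMIs were called, and 1.38% of the 290 with 500 or more. Of all ranked genes, 49.6% had a log2 ratio above 0 and 50.4% below 0.

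**Figure D2:**
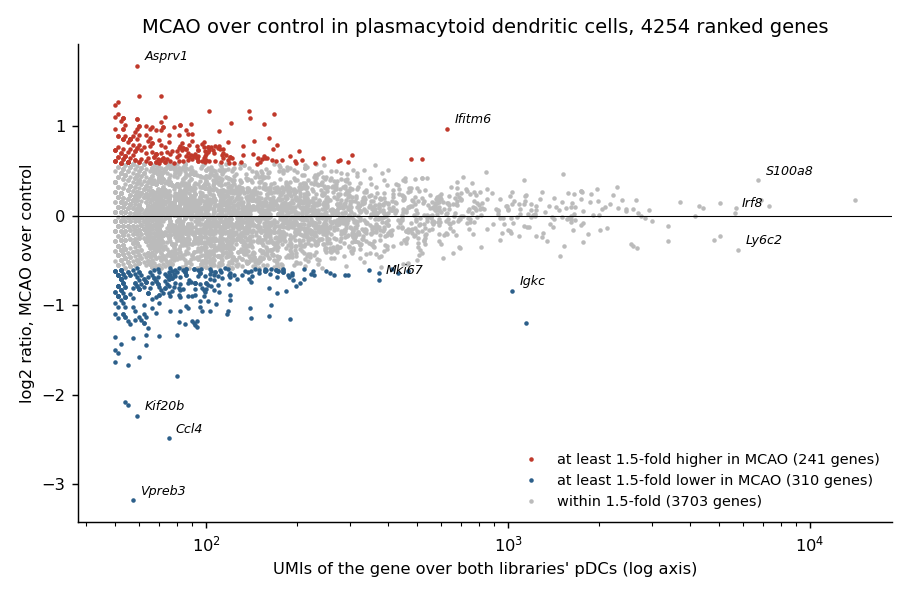
Log2 ratio of MCAO over control pDCs for each ranked gene against its UMIs over both libraries (log axis), with the 241 higher and 310 lower genes coloured. The spread narrows as UMIs increase, and Vpreb3 is lowest at -3.19.

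Only 4 genes with 500 or more UMIs were called. Ifitm6 was at 7.66 in MCAO pDCs and 3.89 in control pDCs, and at 27.7 and 21.8 in other cells. Chil3 was at 5.85 in MCAO pDCs and 3.76 in control pDCs, and at 42.0 and 33.5 in other cells. Both are abundant in granulocytes and monocytes and were far lower in pDCs than in the pooled other cells. Against B-lineage-gated cells no such gap was seen, with Ifitm6 at 5.63 in MCAO and 4.36 in control and Chil3 at 6.11 and 4.27. In MHC-II-high-gated cells Ifitm6 was at 13.8 in MCAO and 11 in control, and Chil3 at 6.20 and 4.36. Igkc, the kappa constant region, was at 6.92 in MCAO pDCs and 12.4 in control pDCs, and at 20 and 37.1 in other cells. The clone CT010467.1 was at 6.50 in MCAO pDCs and 15 in control pDCs, and at 7.11 and 16.1 in other cells. All 4 were chosen for description after their values were seen. Each differed in the same direction in the pooled other cells, but Igkc and Chil3 did not in every gated population. Igkc was higher in MCAO in B-lineage-gated cells (192, and 157 in control) and MHC-II-high-gated cells (12.9 and 9.34). It was lower in MCAO in monocyte-gated cells (4.25 and 7) and neutrophil-gated cells (4.75 and 7.26). Among gated populations, Chil3 was lower in MCAO in neutrophil-gated cells only (24.6 and 26.8). The part of RNA from other cells in these 4 genes was not tested.

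Ccl4, a chemokine that draws T cells and monocytes, was the lowest gene after Vpreb3. It had 11 UMIs in 8 MCAO pDCs and 64 UMIs in 32 control pDCs, 6.09-fold lower in MCAO [3.18 to 12.8]. The shares with a UMI were 7.08% of MCAO pDCs and 27.8% of control pDCs, against 1.48% and 0.825% of B-lineage-gated cells. Thinned to 1000 UMIs they were 4.50% in MCAO pDCs and 10% in control pDCs, and the log2 ratio of its level was -1.24. In other cells Ccl4 was at 0.171 in the MCAO library and 0.234 in the control library. In MHC-II-high-gated cells it was at 0.0785 in MCAO and 0.659 in control, with a UMI in 4.35% and 8.51% of these few cells, and in neutrophil-gated cells at 0.106 in MCAO and 0.241 in control. Lower values in MCAO were thus not seen in pDCs alone. Ccl3, its neighbour in function, had 4 UMIs in MCAO pDCs and 5 in control pDCs.

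Vpreb3, a B-lineage gene, had 5 UMIs in MCAO pDCs and 52 in control pDCs, 10.9-fold lower in MCAO [4.37 to 34.9]. A single control cell held 17 of the 52, and reads may include Gm16221, which overlaps it. In other cells it was at 1.20 in the MCAO library and 4.04 in the control library, and it is abundant in B-lineage-gated cells (13.5 and 25). The 6 B-lineage markers summed to 0.890 in MCAO pDCs and 1.65 in control pDCs, each lower in MCAO and each below other cells. Cd79a and Cd79b are among them, and the rule kept both low, so their place below other cells is only a description. The part of B-lineage RNA in the Vpreb3 result was not tested.

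The other genes among the 12 lowest have varied roles. Kif20b, a mitotic kinesin, had 10 UMIs in MCAO pDCs and 49 in control pDCs. Slbp, which binds histone mRNA in S phase, had 10 in MCAO pDCs and 45 in control pDCs. Thy1 had 18 UMIs in MCAO pDCs and 62 in control pDCs, but 41 of the 62 came from 1 cell. By its Thy1 level of 43.4, this cell was the control pDC with 9441 UMIs in all. It had no Siglech UMI and a cell division sum of 191, the highest among control pDCs. Without the cell with most UMIs in each library the log2 ratio of Thy1 was -0.61. Inpp5k had 10 UMIs in MCAO pDCs and 44 in control pDCs and Tfeb, a lysosome regulator, 12 and 38. Fbxo5, Paf1, Klhdc10, Nbn and Tom1l2 complete the 12 lowest.

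The highest gene was Asprv1, with 46 UMIs in MCAO pDCs and 13 in control pDCs, 3.38-fold higher [1.80 to 6.83]. It is far more abundant in neutrophil-gated cells, at 6.80 in MCAO and 3.25 in control. Without the pDCs with a granule sum above 400 its log2 ratio was 0.98, against 1.68 with them, and that of Rflnb was 0.46, against 1.34. Lrg1 was at 1.31 in MCAO pDCs and 0.570 in control pDCs, and at 15.2 and 9.17 in neutrophil-gated cells. Lgals3, a galectin, was at 2.12 in MCAO pDCs and 0.950 in control pDCs. It was higher in several other populations, at 21.9 and 19.3 in monocyte-gated cells, 13.7 and 10.9 in neutrophil-gated cells, and 10.5 and 11.6 in MHC-II-high-gated cells. Mpnd, a deubiquitinase-like protein, differs from these, at 1.78 in MCAO pDCs and 0.779 in control pDCs, against 0.409 and 0.353 in other cells. Rflnb, Arl8a, Ncapg2, Aplp2, Snx27, Thumpd1, Med8 and Wfdc17 complete the 12 highest. The granule genes summed to 213 in MCAO pDCs and 176 in control pDCs, and the part of neutrophil RNA in these genes was not tested.

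Haemoglobin, an erythroid product kept outside the ranked genes, was measured in every population. The 4 genes summed to 16 in MCAO pDCs and 8.64 in control pDCs, to 17.7 and 9.12 in B-lineage-gated cells, and to 19 and 9.93 in neutrophil-gated cells. 3 of the 4 were at least 1.5-fold higher in MCAO pDCs. Reads of Hba-a1 and Hba-a2 may be split between the copies.

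Lists of genes by role are given by their counts, beside 5.67% of all ranked genes called higher and 7.29% called lower. Of the 11 ranked pDC transcription factors, 0 were called higher and 1 lower (Etv6), and their median log2 ratio was 0.04. Runx2 had a log2 ratio of 0.30 and Bcl11a 0.26. Of 18 surface and lineage genes, 2 were called lower, Lag3 and Lifr. The median was -0.15. Cd4 was at 3.50 in MCAO pDCs and 5.09 in control pDCs. Flt3, the receptor for the dendritic cell growth factor, was at 3.36 in MCAO pDCs and 2.47 in control pDCs.

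Nucleic acid sensing, the working end of the cell, differed little: 1 of 11 ranked genes was called, Slc15a4, a lysosomal transporter needed for Toll-like receptor signals, at 1.67 in MCAO pDCs and 1.06 in control pDCs. Tlr7 was at 1.56 in MCAO pDCs and 1.79 in control pDCs, and Irf7, the master factor of interferon genes, at 5.43 and 5.18. The type I interferon genes are not analysed here. Il6, Il12b, Cxcl9 and Cxcl10 had 0 UMIs in pDCs of both libraries, under the floor of 3 UMIs.

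Most interferon response genes were lower in MCAO pDCs. Of 16 ranked genes, 14 had a log2 ratio below 0, set against 50.4% of all ranked genes, and 5 were called lower: Mx1, Usp18, Rsad2, Isg15 and Rtp4. With every cell thinned to 1000 UMIs the log2 ratio of Rsad2 turned to 0.46. The median was -0.31. Mx1, an antiviral GTPase, was at 0.418 in MCAO pDCs and 1.08 in control pDCs. Isg15, a ubiquitin-like modifier, was at 0.708 in MCAO pDCs and 1.23 in control pDCs. The same 16 genes had a median of -0.60 in all other cells, -0.65 in monocyte-gated, -0.48 in neutrophil-gated and -0.25 in B-lineage-gated cells, but 0.00 in MHC-II-high-gated cells. Stat2 was at 4.25 in MCAO pDCs and 3.48 in control pDCs.

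MHC class I genes also lay lower, with a median of -0.27 over 13 genes and 1 called (H2-Q6, whose reads may be split with H2-Q7), and a median of -0.51 in other cells. B2m was at 40.4 in MCAO pDCs and 48.7 in control pDCs. MHC class II genes had a median of -0.31 over 8, with H2-DMb1 (82 UMIs) called. The median of these 8 was -0.30 in all other cells, -0.29 in monocyte-gated and -0.16 in neutrophil-gated cells. It was 0.22 in MHC-II-high-gated and 0.85 in B-lineage-gated cells. Ly6c2 was at 46.7 in MCAO pDCs and 60.8 in control pDCs, and Ly6a at 21.8 and 28.

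Genes of endoplasmic reticulum and secretion showed no call among 20, with a median of 0.06, and cytochrome c oxidase genes none among 11. Cell division genes had a median of -0.38 over 15, with 1 called higher (Mcm7) and 4 lower (Mki67, Ccnb2, Tpx2, Rrm2). The direction of 2 of these calls turned: the log2 ratio of Mki67 was 0.23 when a marker sum of 10 was enough, and that of Tpx2 was 1.15 without the dividing pDCs. Mki67 was at 2.63 in MCAO pDCs and 4.33 in control pDCs. The median was 0.27 without the dividing pDCs described next, and 0.14 with every cell thinned to 1000 UMIs. Immediate early genes had a median of -0.27 over 10 and heat shock genes -0.31 over 7, with Hspd1 and Hspe1 called lower, although Hspd1 was at 0.12 with thinned cells. Among cytokine receptors Ifnar1 was at 1.74 in MCAO pDCs and 1.35 in control pDCs. Rel, an NF-kB subunit, was at 1.14 in MCAO pDCs and 0.646 in control pDCs. Ribosomal protein genes had a median of 0.14 over 60.

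**Figure D3:**
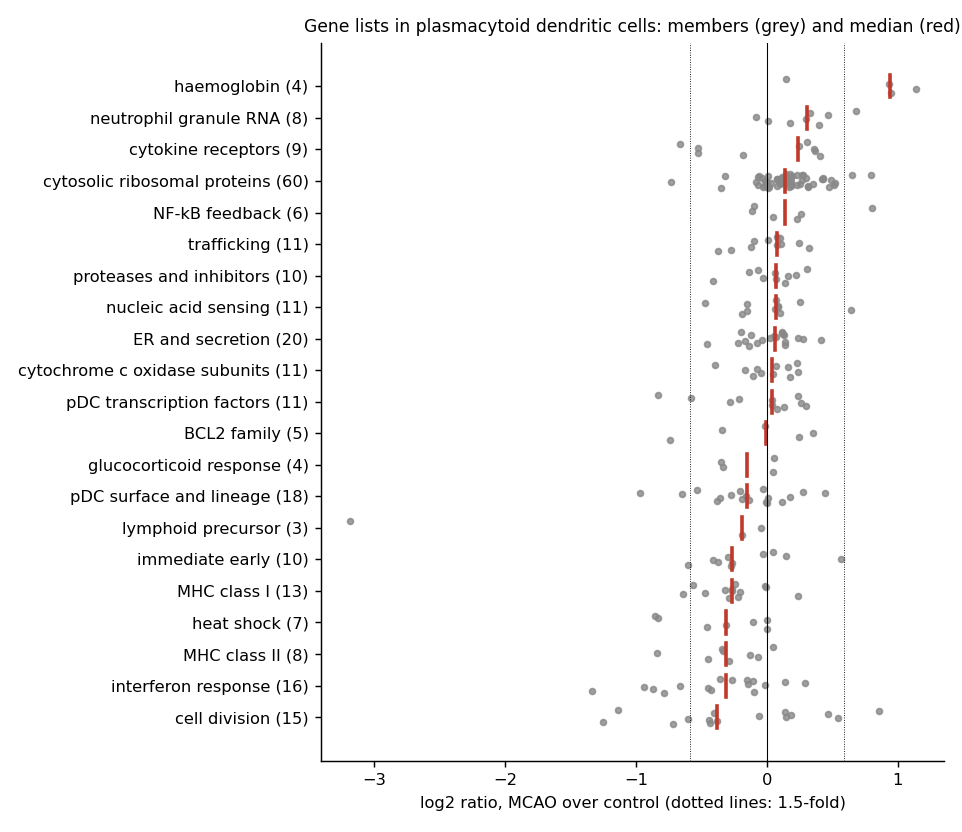
Log2 ratio of MCAO over control pDCs for the measured members of each list with at least 3 (grey points, number in brackets) and the list's median (red bar), with dotted lines at 1.5-fold. Haemoglobin lies highest at 0.94, and cell division lowest at -0.38.

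A minority of pDCs carried high levels of cell division genes. Those with a summed level of the cell division genes of at least 20 were called dividing, a range cut from a score and not a type. They were 14 of 113 MCAO pDCs (12.4% [6.94 to 19.9]) and 18 of 115 control pDCs (15.7% [9.55 to 23.6]), and 15 MCAO and 8 control pDCs lay between 15 and 25. Thinned to 1000 UMIs, 28.8% of MCAO pDCs and 28.2% of control pDCs had at least 2 such UMIs. Dividing pDCs were deeper, with a median of 6115.5 UMIs against 4626 in other MCAO pDCs, and 6560 against 4255 in control. The intervals of the 2 shares overlap. The 5 pDC markers summed to 58.8 in dividing and 100 in other MCAO pDCs, and to 58.7 and 96.4 in control. These sums include Siglech, Ccr9 and Cox6a2, which chose the cells, and are given as a description. T cell markers summed to 0.586 in dividing and 0.258 in other MCAO pDCs, and to 1.95 and 0.287 in control. NK cell markers summed to 0.352 in dividing and 0.387 in other MCAO pDCs, and to 1.48 and 0.382 in control. As a group, the dividing control pDCs thus carried more of both marker sets, and the spread of these sums over single cells was not tested. Siglech had a UMI in 14 of 14 dividing MCAO pDCs and 16 of 18 dividing control pDCs. The part of these marker sets, and of dividing pDCs without Siglech, in the differences below was not tested.

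**Figure D4:**
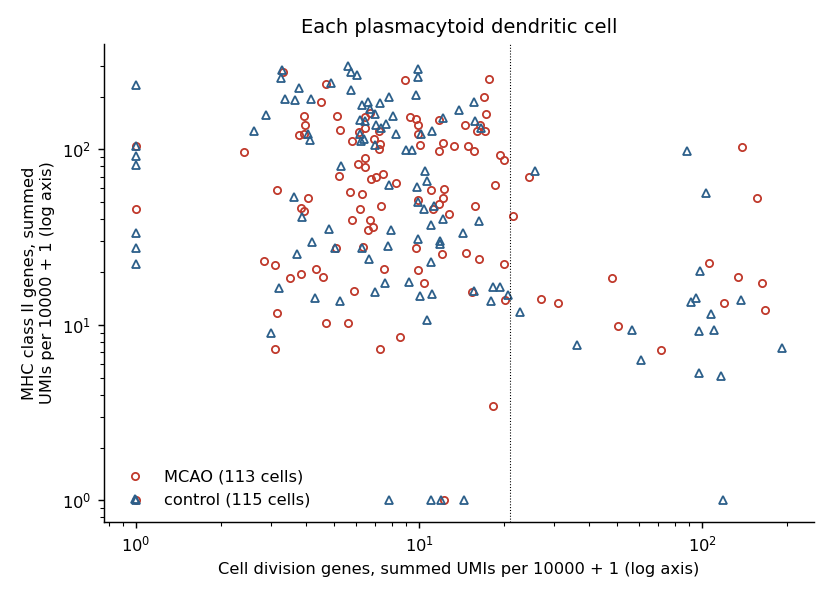
Summed level of the MHC class II genes against that of the cell division genes in each pDC (UMIs per 10000, 1 added, both axes log), with circles for 113 MCAO cells and triangles for 115 control cells and a dotted line at the limit of 20. To the right of the line most cells lie low on the class II axis.

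Of all ranked genes, 241 were at least 2-fold lower in dividing than in other pDCs in both libraries (5.67%) and 201 at least 2-fold higher (4.72%). MHC class II was among the lower genes, 5 of 8 ranked: H2-Aa, H2-Ab1, H2-Eb1, H2-Oa and Cd74. H2-Oa had 0 UMIs in dividing pDCs of both libraries, which in MCAO bounds it only at 1.41-fold lower. Cd74, the invariant chain, was at 3.98 in dividing and 24.5 in other MCAO pDCs, and at 2.69 and 33.3 in control. H2-Aa was at 5.04 in dividing and 16.6 in other MCAO pDCs, and at 1.20 and 22.5 in control. Over single cells the class II sum had a median of 54.9 in MCAO pDCs and 49.2 in control pDCs, with quartiles of 20.9 and 110 in MCAO and 15 and 141 in control.

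Cd4, a coreceptor also carried by part of the mouse pDCs, had a UMI in 0 of 14 dividing and 53 of 99 other MCAO pDCs, at least 11.8-fold lower against a floor of 3 UMIs over the group. In control it had one in 2 of 18 dividing and 63 of 97 other pDCs, with a ratio of levels of 0.0439 [0.009 to 0.13]. Klk1 was at 1.05 in dividing and 7.37 in other MCAO pDCs, and at 0.0927 and 7.29 in control. Cd209d had no UMI in dividing pDCs of either library, against 2.04 and 2.48 in the others. Ctsl, a lysosomal protease that matures antigens and Toll-like receptors, was at 2.70 in dividing and 9.93 in other MCAO pDCs, and at 1.76 and 10.1 in control. Irf7 was at 1.29 in dividing and 6.19 in other MCAO pDCs, and at 1.76 and 6.07 in control. Each of these genes was lower in dividing cells of both libraries, which had more UMIs per cell.

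Chemokine receptors split: Ccr2 and Cxcr3 were lower in dividing pDCs, while Cxcr4, which holds cells in the marrow, was at 5.63 in dividing and 2.06 in other MCAO pDCs and at 6.02 and 2.72 in control. Of the 11 transcription factors, 0 passed 2-fold in both libraries: Tcf4 was at 19.2 in dividing and 24.1 in other MCAO pDCs, and at 14.1 and 24.2 in control. The rule gene Siglech was at 17.2 in dividing and 42.7 in other MCAO pDCs and at 14.9 and 44.8 in control. The other rule genes differed in direction. Ccr9 was at 7.03 in dividing and 14.3 in other MCAO pDCs and at 7.97 and 13.2 in control. Cox6a2 was at 16.8 and 15 in MCAO and at 23.8 and 13.6 in control. A cell low in Siglech could pass the rule only with enough Ccr9 or Cox6a2. The choice of cells thus shaped these levels, which are given as a description. Ly6d, a marker of lymphoid-primed precursors, was at 26.5 in dividing and 17.4 in other MCAO pDCs, and at 34.2 and 17.2 in control. Flt3 was at 5.74 against 2.92 in MCAO and 3.43 against 2.22 in control. Neither gene was past 2-fold in both libraries. Il7r, the interleukin-7 receptor of lymphoid precursors, was at 3.63 against 4.02 in MCAO and 2.50 against 4.49 in control. Dntt went in opposite directions, at 1.17 against 2.34 in MCAO and 5.37 against 1.72 in control. Bcl2 was higher in dividing pDCs, at 1.64 against 0.215 in MCAO and 2.50 against 0.287 in control. Slamf9 and Igfbp4 were picked after their values were seen: Slamf9 had 0 UMIs in dividing pDCs of both libraries, against 2.45 and 3.46 in the others, and Igfbp4 was at 1.88 against 0.193 in MCAO and 2.04 against 0.0717 in control.

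**Figure D5:**
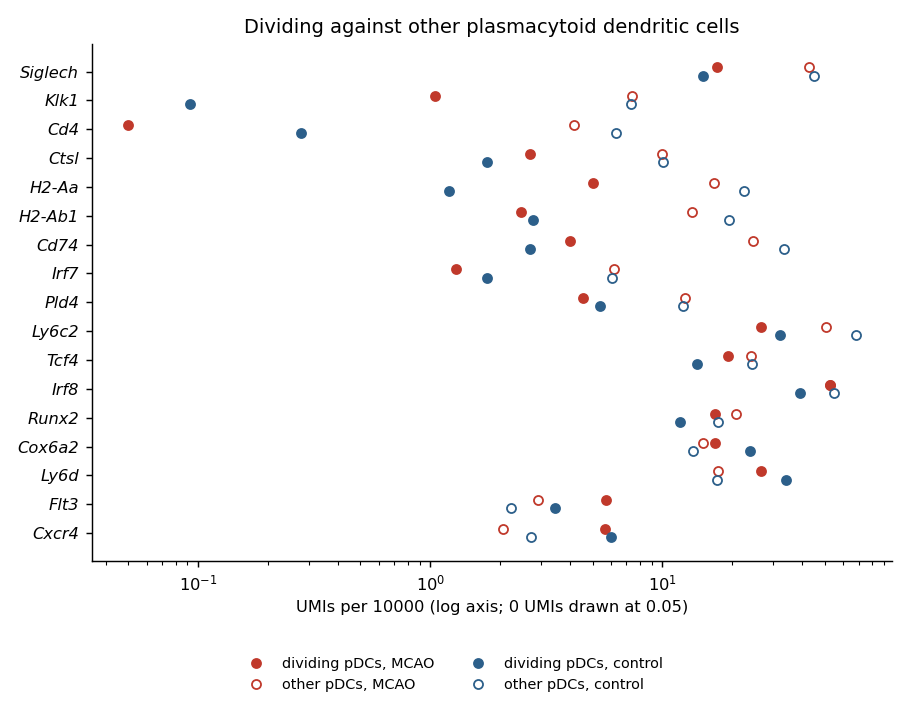
Level of selected genes (UMIs per 10000, log axis) in dividing (filled) and other (open) pDCs of the MCAO and control libraries, with 0 UMIs drawn at 0.05. Cd74, H2-Aa, Cd4, Klk1 and Irf7 lie lower in dividing cells of both libraries, and Cxcr4 higher.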

How the data were processed

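Per the labels, 1 library per group was made from all bone marrow cells. The values, as the authors deposited them, are on a natural log scale, in 1 table of 25943 genes and 10610 cells. Seurat 4.0.6, UMI-tools, STAR, fastp and build mm10 are named, per the submitters' processing notes, with no order or settings. For annotation, strand use and cell filters, nothing is given in the sources used here. Linear values summed to 10000 in every cell, so each value was read as the natural log of 1 plus UMIs per 10000, and 100% of the 19373615 values above 0 came out as whole UMIs (tolerance 0.01). Libraries were told apart by column name starts, Mandarin words for stroke and control, mapped by translation.

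Levels are summed UMIs per 10000 with exact Poisson intervals, shares have Clopper-Pearson intervals, and ratios have conditional exact binomial intervals. Log2 ratios are MCAO over control with a pseudocount of 0.02. Haemoglobin, antigen receptor segments and Gm or Rik models were not ranked. Genes are named where they were among the 12 highest or 12 lowest ranked ratios, the 20 leading genes, rule genes, markers or up to 6 members of a list. Others were chosen after their values were seen. The members and lists were chosen with earlier results of these data known. Doublets were scored with scanpy 1.11.5 (2 simulated per cell), which marked 64 MCAO and 54 control cells. They were kept, and left out as an alternative. B-lineage-gated cells had Cd79a and Cd79b of at least 30, neutrophil-gated cells Mmp9, Csf3r and Cxcr2 of at least 40, monocyte-gated cells Csf1r, F13a1 and Ms4a6c of at least 15, and MHC-II-high-gated cells H2-Aa, H2-Ab1, H2-Eb1 and Cd74 of at least 60 with Cst3 of at least 20 (summed levels). Calculations used numpy 2.4.6 and scipy 1.17.1, and intervals were checked on simulated data. Gene positions came from GENCODE M21, in which 97.9% of gene names were found.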

Additional observations from a re-analysis of the deposited data

How the results depend on the processing

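No paired analysis was possible because each group had 1 library. The difference in pDC share lay between -0.420 and 0.0113 percentage points over the settings tried. Counts of genes called higher and lower were 241 and 310. They moved beyond 1.5 times under 5 settings: 49 and 53 with every cell thinned to 1000 UMIs, 119 and 177 with a pseudocount of 0.2, 767 and 824 with a minimum of 20 UMIs, 11 and 19 with 200 UMIs, and 2235 and 2451 with 1 UMI. Log2 ratios changed sign for Mki67 (0.23, marker sum of at least 10), Fosb (0.24, marker sum of at least 40), Hspd1 (0.12), F13a1 (-0.01) and Rsad2 (0.46), the last 3 with thinned cells, and for Tpx2 (1.15, dividing pDCs left out). The cause was not tested. Leaving out dividing pDCs, pDCs with high granule RNA or the cell with most UMIs of a gene, and the share under the Cd79 limit, were chosen after seeing the data. Among the 24 highest and lowest genes, Snx27, Thumpd1, Rflnb and Wfdc17 stayed past 1.5-fold in 13 of 14 settings and Fbxo5 in 12. The median of granule genes was 0.31, and -0.07 with a marker sum of at least 40. Depth limits genes under 100 UMIs, of which 20.7% were called.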
